A study of Canis lupus familiaris with 12 samples.

Results

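Robenacoxib and carprofen were compared directly in Mi/CMM1, a cell line grown from a canine melanoma of the mouth, by messenger RNA profiling on one-colour Agilent dog arrays. The comparison took the 3 arrays titled for robenacoxib and the 3 titled for carprofen, 6 of the 12 arrays of the study. The other arrays were 3 of untreated cells, whose label names no vehicle, and 3 of cells given piroxicam. Robenacoxib was given at 156 µM. The sources conflict for carprofen and piroxicam, whose doses are interchanged between them. The sample labels give carprofen 779 µM, piroxicam 116 µM and an exposure of 6 h to every drug. The treatment protocol gives carprofen 116 µM, piroxicam 779 µM and 24 h. The concentrations of robenacoxib and carprofen therefore differ in either version, and a difference between the drugs cannot be told apart from a difference in dose. The line is a single cell line, and the replicates are called biological with nothing more on how cultures were separated, so p-values measure the spread between these arrays.

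Both compounds are nonsteroidal anti-inflammatory drugs used in dogs. By structure, robenacoxib derives from phenylacetic acid, whereas carprofen is an arylpropionic acid. Drugs of this class block cyclooxygenases, the enzymes PTGS1 and PTGS2, which turn arachidonic acid into the precursor of the prostaglandins. Prostaglandin E2 acts on cells through receptors that include PTGER2 and PTGER4, and PTGS2 is itself an inducible gene that many stimuli raise. MYC is a transcription factor that drives growth and division, CXCL8 (interleukin 8) is a chemokine that attracts neutrophils and is made by many tumours, and MITF is the master regulator of the melanocyte lineage.

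Between 70.6% (carprofen 1) and 80.1% (carprofen 2) of probes were well above background on the carprofen arrays, and between 73.1% and 76.0% on the robenacoxib arrays. Correlations between arrays were taken over the probes well above background on all 12 arrays, which leaves out dim probes. They were 0.9976 to 0.9988 within carprofen, 0.9973 to 0.9976 within robenacoxib and 0.9967 to 0.9984 between the drugs. No slide held both drugs: all robenacoxib arrays lay on slide 3, carprofen 1 on slide 1 and carprofen 2 and 3 on slide 2. The 3 untreated arrays lay on slide 1. Slides 2 and 3 are linked only through the piroxicam arrays, of which 1 and 2 lay on slide 2 and 3 on slide 3. A fit with slide as a block thus sums 2 differences: robenacoxib from piroxicam 3, and piroxicam 1 and 2 from carprofen 2 and 3. Carprofen 1 does not enter this drug difference. In that fit, carprofen 1 alone carries carprofen against untreated cells. Robenacoxib against untreated cells runs through carprofen 1 and piroxicam 3. Of the 8 melanocyte markers looked for, 2 had a named probe: MITF was well above background on 6 of 6 arrays, and TYR, the pigment enzyme tyrosinase, on 0 of 6. The collagen genes COL1A2 and COL1A1, which mark fibroblasts, ranked at percentiles 99.2 and 94.1 of signal, and their drug difference was 0.09 (SE 0.03, adjusted p 0.124) and 0.06 (SE 0.03, adjusted p 0.232) on the log2 scale. The fibroblast markers PDGFRB and DCN ranked at percentiles 54.4 and 37.3, with differences of -0.13 (adjusted p 0.618) and -0.20 (adjusted p 0.314). MITF ranked at percentile 71.3. The endothelial marker VWF ranked at 77.7 and the leukocyte markers CD4 and CD8A at 48.2 and 39.8, each well above background on 6 of 6 arrays.

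Values below are log2 signals relative to the array's 75th percentile, differences are robenacoxib minus carprofen on the log2 scale, and a probe is called when its limma p-value, adjusted over all 31996 tested probes, is below 0.05. The drugs differed at 2609 probes (8.15%), 1413 of them higher with robenacoxib (4.42%) and 1196 lower (3.74%), that is 54.2% higher. That split depended on the scaling and on the arrays fitted: 17.5% of 1102 calls were higher when arrays were scaled on 8 spike-in controls, 43.1% of 662 after normexp background correction and quantile normalization, 44.1% of 555 in the authors' deposited values and 33.3% of 210 when only the 6 arrays were fitted. Most called differences were small, with a median of 0.19 in absolute size, and 65 probes were called at 1.5-fold or more. Called probes at 2-fold or more were 3 higher (0.00938%) and 10 lower (0.0313%) with robenacoxib, and of these, 1 and 2 had signal above background on each of the 6 arrays. The 95% interval of the difference lay within 2-fold for 93.0% of the tested probes and within 1.5-fold for 81.3%. With slide as a block, 81 probes were called (0.253%), 47 of which were also called without it, 28 higher and 19 lower with robenacoxib, and each of the 47 had signal above background on the 6 arrays.

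Only a small share of the probes has a gene name, so what follows covers 614 named genes, of which 53 were called (8.63%), 29 higher (4.72%) and 24 lower (3.91%) with robenacoxib. These shares are close to those of all probes. Counts of called genes in the lists below are to be read beside them. In all 53, the 3 robenacoxib values did not overlap the 3 carprofen values, a separation seen in 167 of the named genes (27.2%) and in 27.1% of tested probes. With slide as a block, 2 named genes were called (0.326%), CXCL8 and MYC, and all 53 had the same sign. When each of the 6 drug arrays was left out in turn, 21 of the 53 were called every time: CXCL8, MYC, ESRRA, SELENOK, MITF, ANP32A, CTSD, SLC35B2, RAB4B, RPL27, SEC11C and SEC61B among the higher and RHPN2, BCL2L2, MX1, SLC3A1, HSP70, GFI1, TGM1, CTSS and ARHGAP35 among the lower. In none of these fits were 10 called, namely PTGER4, SELENOF, GUSB, SLC11A1, CD163, CDKN1B, HTR2B, CCL25, CD38 and SAG.

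**Figure D1:**
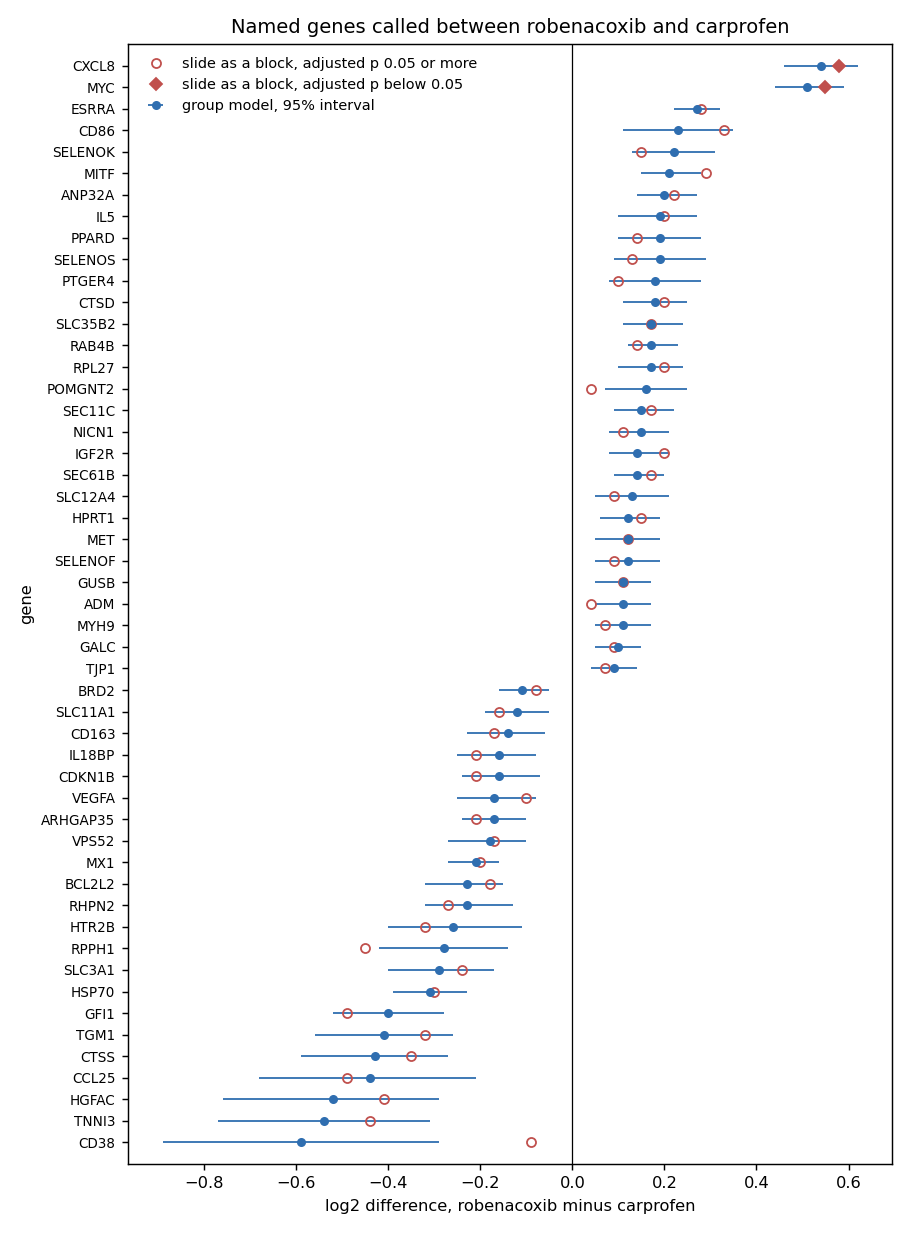
Difference between the drugs (x axis, log2, robenacoxib minus carprofen) for 51 called named genes (y axis), with the 95% interval of the group model in blue and the estimate with slide as a block in red, filled where it was called. SAG, not above background with robenacoxib, is left out of the plot. CXCL8 and MYC stand at the top with filled marks, and CD38 has a block estimate far from its group estimate.

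CXCL8 had the largest called upward difference among the 614 named genes. Robenacoxib values were -0.61, -0.52 and -0.58, against -1.14, -1.13 and -1.06 with carprofen. The lowest robenacoxib array lay well above the highest carprofen array. The difference was 0.54 (SE 0.03, adjusted p 9.06e-05), a 1.45-fold higher signal with robenacoxib, and 0.58 (adjusted p 0.0271) with slide as a block. All 4 CXCL8 probes were called higher, at 0.54, 0.29, 0.39 and 0.44. Untreated cells served as background: robenacoxib differed from them at 22.2% of tested probes and 23.6% of named genes, and carprofen at 32.8% and 35%. Their arrays shared slide 1 with carprofen 1 and with no robenacoxib array. Without the slide block, a robenacoxib difference from untreated cells thus cannot be told apart from slide. With the block, that difference runs through the single arrays carprofen 1 and piroxicam 3. Against these cells, at -0.99 ± 0.02 (SD, n = 3), robenacoxib was higher by 0.42 (SE 0.03, adjusted p 6.29e-05) and carprofen lower, at -0.12 (SE 0.03, adjusted p 0.0246). The direction for carprofen turned to 0.22 (adjusted p 0.00459) with spike-in scaling. Under the slide block the carprofen difference was -0.15 and uncalled, an estimate that rests on carprofen 1 alone. In the authors' deposited values it was -0.01 (adjusted p 0.876), and after normexp correction -0.01 with 75th percentile scaling and -0.02 with quantile normalization (adjusted p 0.959 and 0.8). It was also uncalled without carprofen 1 or carprofen 2 (-0.11 each, adjusted p 0.067 and 0.0745), and the robenacoxib difference of 0.42 was uncalled under the slide block (adjusted p 0.0596). Both drugs are set against the same 3 untreated arrays.

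Among the 14 tested inflammatory cytokines and chemokines, CXCL8 was the 1 called gene, and the median difference over them was -0.01, as it was over all tested probes. CSF2, a growth factor for granulocytes and macrophages, was measured at 0.52 (SE 0.21, adjusted p 0.177), and IL18, an inflammasome cytokine, at -0.61 (SE 0.33, adjusted p 0.308). Neither difference passed the test. IL5, the cytokine that supports eosinophils and which lay outside that list, was called higher at 0.19 (SE 0.04, adjusted p 0.0227). The chemokine CCL25, likewise outside it, was called lower at -0.44 (SE 0.10, adjusted p 0.0336). With normexp correction and 75th percentile scaling CCL25 was at -0.07 (adjusted p 0.765).

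MYC was the other named gene called with and without the slide block. Its robenacoxib values were 0.47, 0.56 and 0.57, and its carprofen values 0.03, -0.01 and 0.05. Again no array of one drug reached the range of the other. The difference, 0.51 (SE 0.03, adjusted p 8.07e-05), corresponds to 1.43-fold, and the slide block gave 0.55 (adjusted p 0.0288). Untreated cells stood at 0.46 ± 0.03 (SD, n = 3), so carprofen lay below them by -0.44 (SE 0.03, adjusted p 2.11e-05), while robenacoxib differed by 0.07 (SE 0.03, adjusted p 0.133), which was not called but came to 0.11 (adjusted p 0.0384) without robenacoxib 1. With spike-in scaling the carprofen difference was -0.09 (adjusted p 0.143) and the robenacoxib difference 0.37 (adjusted p 0.000292). The signal with piroxicam, 1.09 ± 0.02, was above that of every other group.

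Of the 9 tested cell cycle genes, MYC was higher and 1 lower. The lower one, CDKN1B (p27), an inhibitor of cyclin-dependent kinases, was at -1.61, -1.66 and -1.64 with robenacoxib and -1.44, -1.49 and -1.52 with carprofen. Its difference of -0.16 (SE 0.04, adjusted p 0.0329) was lost in every fit that left out 1 of the 6 arrays, and its second probe gave -0.05. CCND1, the G1 cyclin D1, had nearly equal signals, with robenacoxib at 2.93, 2.90 and 2.97 and carprofen at 2.92, 2.90 and 2.93. Its difference was 0.02, with a 95% interval of -0.05 to 0.08 (adjusted p 0.782). BIRC5 (survivin), a mitotic protein that also blocks cell death, was measured at 0.15 (interval 0.06 to 0.25), and its adjusted p of 0.055 missed the threshold.

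**Figure D2:**
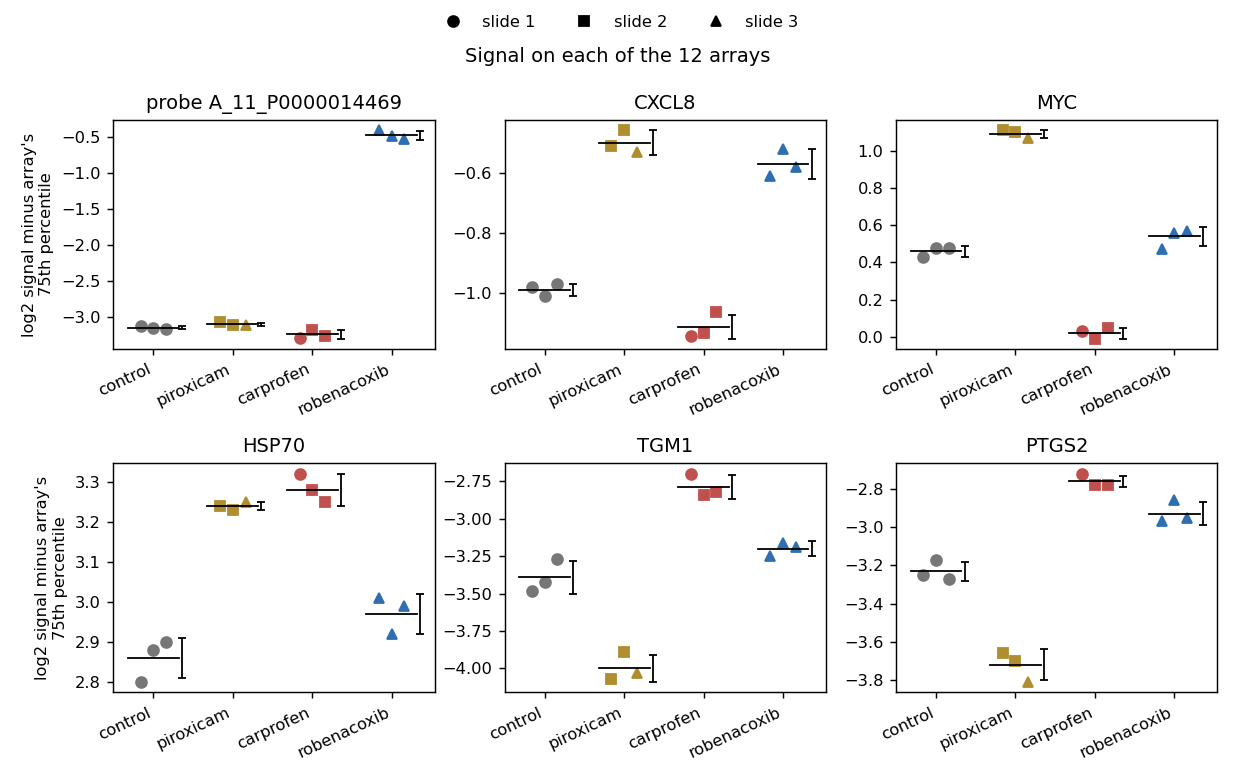
Signal on each of the 12 arrays (y axes, log2 relative to the array's 75th percentile) by group (x axes) for an unnamed probe and 5 genes. Marker shapes give the slide, horizontal lines the group means and bars 1 SD (n = 3). In each panel except PTGS2, which was not called, the robenacoxib and carprofen means differed by a called amount, and in all 6 panels their arrays did not overlap.

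The prostanoid genes are the known targets of these drugs and their partners. Of 8 tested, 1 was higher, 0 lower and 7 not called, with a median of -0.01. Over all tested probes, 8.15% were called. PTGS2 (cyclooxygenase 2) was at -2.97, -2.86 and -2.95 with robenacoxib and at -2.72, -2.78 and -2.78 with carprofen. The arrays of the drugs did not overlap, yet the difference of -0.17 (interval -0.27 to -0.06) had an adjusted p of 0.0594, and the slide block reduced it to -0.02 (adjusted p 0.93). Both drugs were above untreated cells, at -3.23 ± 0.05 (SD, n = 3): robenacoxib by 0.30 (SE 0.05, adjusted p 0.00193) and carprofen by 0.47 (SE 0.05, adjusted p 0.000111). Under the slide block the increase with robenacoxib was 0.49 and no longer called (adjusted p 0.0561).

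The called prostanoid gene was PTGER4, the EP4 receptor for prostaglandin E2. Robenacoxib arrays read -1.90, -1.90 and -1.83 and carprofen arrays -2.03, -2.01 and -2.13, a difference of 0.18 (SE 0.04, adjusted p 0.0383). It was not called in any of the 6 fits that left out 1 array of the drugs, nor under the slide block (0.10, adjusted p 0.618). The EP2 receptor PTGER2 was measured at -0.15 (interval -0.51 to 0.21), and PTGES, the synthase that makes prostaglandin E2, at -0.25 (interval -0.50 to 0.00). PTGS1 (cyclooxygenase 1) was dim and scattered. It read -5.47, -5.52 and -6.11 with robenacoxib and -6.53, -6.09 and -5.89 with carprofen, and the interval of its difference, -0.85 to 1.79, extends beyond 2-fold upwards.

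Heat shock and death-control genes were next examined. HSP70, the inducible chaperone that refolds damaged proteins, was lower with robenacoxib on all 4 of its probes. The brightest read 3.01, 2.92 and 2.99 with robenacoxib against 3.32, 3.28 and 3.25 with carprofen, a difference of -0.31 (SE 0.04, adjusted p 0.00171), and the others gave -0.36, -0.29 and -0.21. The slide block gave nearly the same estimate, -0.30, which was not called (adjusted p 0.147). Carprofen was above untreated cells by 0.42 (SE 0.04, adjusted p 4.96e-05) and robenacoxib by 0.11 (SE 0.04), which was not called (adjusted p 0.0593) but reached 0.14 (adjusted p 0.0414) without robenacoxib 2 and 0.41 (adjusted p 2.24e-05) with spike-in scaling. HSPA4, HSPB1 and HSPB8, the remaining heat shock genes tested, were measured at 0.12, -0.03 and -0.12 and were not called.

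Among 14 tested apoptosis regulators, 1 was called. BCL2L2 (BCL-W), a death-blocking member of the BCL2 family, was at -2.22, -2.31 and -2.31 with robenacoxib and -2.04, -2.06 and -2.02 with carprofen, a difference of -0.23 (SE 0.04, adjusted p 0.00639). Its relatives BCL2, MCL1, BAX and BAK1 were measured between 0.00 and 0.08 and were not called. BCL2L2 was called in all 6 fits without 1 of the arrays, but not under the slide block (-0.18, adjusted p 0.327).

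Genes for 2 nuclear receptors and for the melanocyte regulator were higher with robenacoxib. ESRRA, an orphan receptor that controls mitochondrial energy genes, read -0.41, -0.43 and -0.44 against -0.71, -0.67 and -0.71 with carprofen. That is a difference of 0.27 (SE 0.02, adjusted p 0.000282), and the slide block gave 0.28 but an adjusted p of 0.0659. Its second probe gave 0.16 and was not called. PPARD, a receptor for fatty acids, was higher by 0.19 (SE 0.04, adjusted p 0.0189), which made 2 of the 6 tested genes of this list higher and 0 lower.

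MITF was tight within the robenacoxib group, at -0.45, -0.45 and -0.46, and stood at -0.64, -0.71 and -0.65 with carprofen. The groups differed by 0.21 (SE 0.03, adjusted p 0.00304), with 0.29 (adjusted p 0.0801) under the slide block and 0.13 on a second probe, which was not called. Untreated cells, at -0.54 ± 0.02 (SD, n = 3), lay between them. Carprofen was lower than untreated by -0.13 (SE 0.03, adjusted p 0.00797), and robenacoxib was at 0.09 (SE 0.03, adjusted p 0.054, or 0.0432 without carprofen 2). With spike-in scaling the robenacoxib difference was 0.39 (adjusted p 8.09e-05) and the carprofen difference turned to 0.22 (adjusted p 0.00136). Under the slide block the carprofen difference, which rests on carprofen 1 alone, was -0.10 and not called. MITF was 1 of 7 tested pigment genes to be called. Of the others, MLPH, which links pigment granules to their motor, was measured at -0.54 (SE 0.20) and MC1R, the melanocortin receptor, at -0.63 (SE 0.47), neither of them called.

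Genes of the ER and lysosome were read beside the shares over all tested probes, 4.42% called higher and 3.74% called lower. All 16 tested genes of the list of endoplasmic reticulum translocation and chaperones were measured above 0, from 0.01 to 0.15 with a median of 0.10, beside -0.01 over all tested probes. Of the 16, 2 were called higher. SEC61B, part of the channel through which new proteins enter, was at 0.14 (SE 0.02, adjusted p 0.00932). SEC11C, a subunit of the signal peptidase, was at 0.15 (SE 0.03, adjusted p 0.0141). With spike-in scaling, quantile normalization or the authors' deposited values, 14 of the 16 were above 0, with medians of 0.06, 0.05 and 0.05. Of these genes, 16 of 16 lay in the brightest of 4 equal bins of tested probes by signal, a bin with a median difference of 0.034. The part of signal strength in the list's median was not tested.

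Of 18 tested lysosome genes, 3 were higher and 1 lower, beside 4.42% and 3.74% of all tested probes. The aspartic protease CTSD was at -0.70, -0.78 and -0.83 with robenacoxib and -0.94, -0.95 and -0.96 with carprofen, a difference of 0.18 (SE 0.03, adjusted p 0.00961). GUSB and GALC, which break down sugar chains and galactolipids, were higher by 0.11 (SE 0.03) and 0.10 (SE 0.02). CTSS, a cysteine protease known for antigen processing, went the other way. It read -4.71, -4.83 and -4.68 against -4.33, -4.30 and -4.31 with carprofen, a difference of -0.43 (SE 0.07, adjusted p 0.00868). With normexp correction CTSS was at -0.08 (adjusted p 0.692) after 75th percentile scaling and -0.19 (adjusted p 0.0574) after quantile normalization. In the authors' deposited values it was at -0.27 (adjusted p 0.0501). IGF2R, the receptor that carries enzymes to the lysosome, was called higher on 3 of 3 probes, at 0.14, 0.20 and 0.22.

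**Figure D3:**
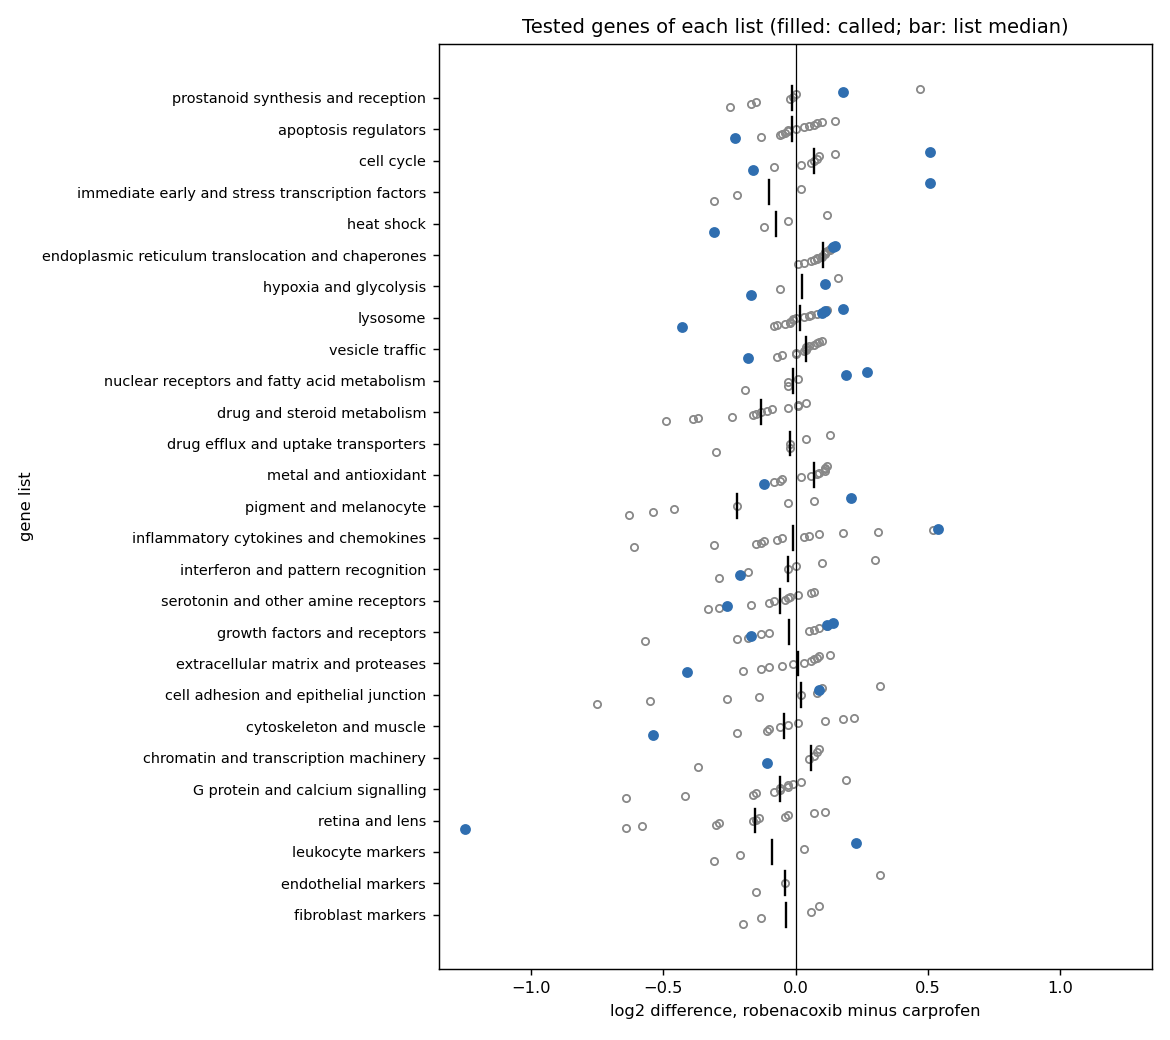
Difference between the drugs (x axis, log2, robenacoxib minus carprofen) for the tested genes of each list with 3 or more of them (y axis). Filled points were called, open points were not, and bars mark list medians; a gene such as MYC can stand in more than 1 list. The drug metabolism, efflux, G protein, endothelial and fibroblast lists have no filled point. Of all named genes tested, 8.63% were called.

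Several further genes were higher by small amounts. They were the costimulatory ligand CD86 (0.23), the nuclear protein ANP32A (0.20), the ribosomal protein RPL27 (0.17), the hepatocyte growth factor receptor MET (0.12), adrenomedullin ADM (0.11) and the tight junction protein TJP1 (0.09). ANP32A and RPL27 were called in all 6 fits without 1 array, and CD86, MET, ADM and TJP1 in 1 of 6 each. After quantile normalization ANP32A, CD86 and MET were called, and RPL27, ADM and TJP1 were not. None of these genes was called with spike-in scaling or in the authors' deposited values. CD86 was the 1 called gene of 4 tested leukocyte markers; CD4 and CD8A were measured at -0.31 (SE 0.27) and 0.03 (SE 0.40) and not called.

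The selenoproteins SELENOK and SELENOS, which sit in the ER membrane, were higher by 0.22 (SE 0.04, adjusted p 0.013) and 0.19 (SE 0.05, adjusted p 0.0352). Counted after their values were seen, 3 of 13 tested selenoprotein genes were higher and 0 lower, with a median of 0.02. The third was SELENOF, at 0.12 (SE 0.03, adjusted p 0.0434).

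Lower genes included several with weak signal. TGM1, the transglutaminase that cross-links the envelope of skin cells, was at -3.25, -3.16 and -3.19 with robenacoxib and -2.70, -2.84 and -2.82 with carprofen, a difference of -0.41 (SE 0.07, adjusted p 0.00713). Carprofen was above untreated cells by 0.60 (SE 0.07, adjusted p 0.000196), while robenacoxib was at 0.19 (SE 0.07, adjusted p 0.0718), or 0.49 (adjusted p 0.000242) with spike-in scaling. GFI1, a transcriptional repressor, read -4.34, -4.50 and -4.47 against -4.12, -3.98 and -3.99, a difference of -0.40 (SE 0.05, adjusted p 0.00304). TGM1 and GFI1 were called in each of the 6 fits without 1 array. Under the slide block neither was called (-0.32, adjusted p 0.315, and -0.49, adjusted p 0.104). With normexp and 75th percentile scaling they were at -0.25 and -0.15, not called (adjusted p 0.183 and 0.482). With normexp and quantile normalization both were called, at -0.29 and -0.24 (adjusted p 0.0121 and 0.0124).

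HTR2B, a serotonin receptor, was above untreated cells with both drugs, by 0.85 with robenacoxib (SE 0.07, adjusted p 4.19e-05) and by 1.10 with carprofen (SE 0.07, adjusted p 7.05e-06). Under the slide block the robenacoxib value was 0.83 and not called (adjusted p 0.0633). Between the drugs it was at -4.59, -4.35 and -4.38 with robenacoxib and -4.14, -4.19 and -4.23 with carprofen. That difference of -0.26 (SE 0.07, adjusted p 0.0448) was lost whenever 1 of the 6 arrays was left out, and with normexp correction and 75th percentile scaling it was 0.03 (adjusted p 0.906).

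Further lower genes were measured on more than 1 probe. MX1, an interferon-induced antiviral protein, was at -1.57, -1.60 and -1.58 with robenacoxib and -1.38, -1.38 and -1.36 with carprofen, a difference of -0.21 (SE 0.02, adjusted p 0.0018); its second probe gave -0.12 and was not called. It was the 1 called gene of 7 tested interferon genes, and OAS1, OAS2 and OAS3, which are also interferon-induced, were measured at 0.00, 0.10 and -0.03. RHPN2 was lower on 3 of 3 probes, at -0.23, -0.34 and -0.35, and SLC3A1, a subunit of the cystine transporter, on both of its probes at -0.29. Under the slide block the SLC3A1 probes were at -0.24 and 0.03 (adjusted p 0.334 and 0.844). The RHPN2 probes were then at -0.27, -0.34 and -0.38, none of them called. VEGFA, the angiogenic growth factor, was at 3.38, 3.39 and 3.45 against 3.56, 3.53 and 3.63. Its difference of -0.17 (SE 0.04, adjusted p 0.0319) was called in 2 of 6 fits without 1 array, and a second probe gave -0.07.

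The remaining lower genes by size were the receptor-like enzyme CD38 (-0.59), cardiac troponin I TNNI3 (-0.54), the growth factor activator HGFAC (-0.52) and RPPH1, the RNA of ribonuclease P (-0.28). TNNI3 had a second probe at 0.20, and CD38 had an estimate of -0.09 under the slide block. With normexp and 75th percentile scaling CD38, TNNI3, HGFAC and RPPH1 were at -0.03, -0.23, -0.04 and -0.16 and not called. With normexp and quantile normalization TNNI3 and HGFAC were called (adjusted p 0.00931 and 0.0315), and CD38 and RPPH1 were not (0.119 and 0.296). The retinal arrestin gene SAG was well above background on 3 of 3 carprofen arrays and 0 of 3 robenacoxib arrays, with group means of -6.29 and -7.55. It passed the filter on dim probes only through the carprofen arrays, so its call (adjusted p 0.036) rests on that selection. With robenacoxib signals taken no lower than each array's dimmest level that counted as above background, it was 1.75-fold lower. That value rests on the same selection and on 75th percentile scaling of the processed signal, so it is no lower bound. SAG was not called under normexp correction or in the deposited values. It was at 0.10 (adjusted p 0.793) and -0.17 (adjusted p 0.169) with normexp and 75th percentile or quantile scaling. In the authors' deposited values it was at -0.35 (adjusted p 0.158).

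Smaller called decreases were found for the bromodomain protein BRD2 (-0.11), the metal transporter SLC11A1 (-0.12) and VPS52, a vesicle tethering protein (-0.18), which was called on 1 of 4 probes. Some called genes lie outside the naming rule and were chosen after their values were seen; besides SELENOF they were these. Higher were RAB4B and SLC35B2 (0.17 each), POMGNT2 (0.16), NICN1 (0.15), SLC12A4 (0.13), HPRT1 (0.12), MYH9 (0.11) and GALC (0.10). Lower were RHPN2 (-0.23), ARHGAP35 (-0.17), IL18BP (-0.16) and CD163 (-0.14).

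No call by limma fell among the 13 tested genes of drug and steroid metabolism or the 12 of G protein and calcium signalling. Over all tested probes, 8.15% were called. The unadjusted limma p was below 0.05 for 2 genes of the first list and 1 of the second. That held for 7563 of the 31996 tested probes. The first list had a median of -0.13. Its members with the lowest differences, CYP1A2 (-0.49, SE 0.31) and UGT2B31 (-0.39, SE 0.17), had standard errors several times the median of 0.053 over all tested probes.

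Signal strength moved with the direction of the calls. Tested probes were divided by mean signal into 4 bins of 7999 each. In the dimmest bin, 12 were higher and 115 lower with robenacoxib, with a median difference of -0.117. Of its probes, 74.9% were above background on all 6 arrays, against 99.8% in the brightest bin. A probe could pass the filter through 1 group alone, and the part of this in the skew was not tested. In the brightest bin, 599 were higher and 199 lower, with a median of 0.034. The called named genes followed the same order, with 0 higher and 6 lower in the dimmest bin and 11 higher and 5 lower in the brightest. The median signal of the dimmest bin was -5.53 and -5.49 on carprofen 2 and 3, -5.73 on carprofen 1 and -5.63, -5.77 and -5.69 on robenacoxib 1 to 3, so carprofen 2 and 3 stood above the other 4 arrays. Piroxicam 1, which shared slide 2 with them, was at -5.75, piroxicam 2 on that slide at -5.54 and control 3 on slide 1 at -5.41. After quantile normalization the dimmest bin held 47 higher and 49 lower probes and the brightest 340 and 322. Of the 6 called named genes in the dimmest bin, CD38, CCL25 and HTR2B were then not called (adjusted p 0.0957, 0.0684 and 0.527). CTSS, HGFAC and SAG still were (adjusted p 0.00764, 0.00716 and 0.0244). With normexp correction and 75th percentile scaling, none of the 6 was called.

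**Figure D4:**
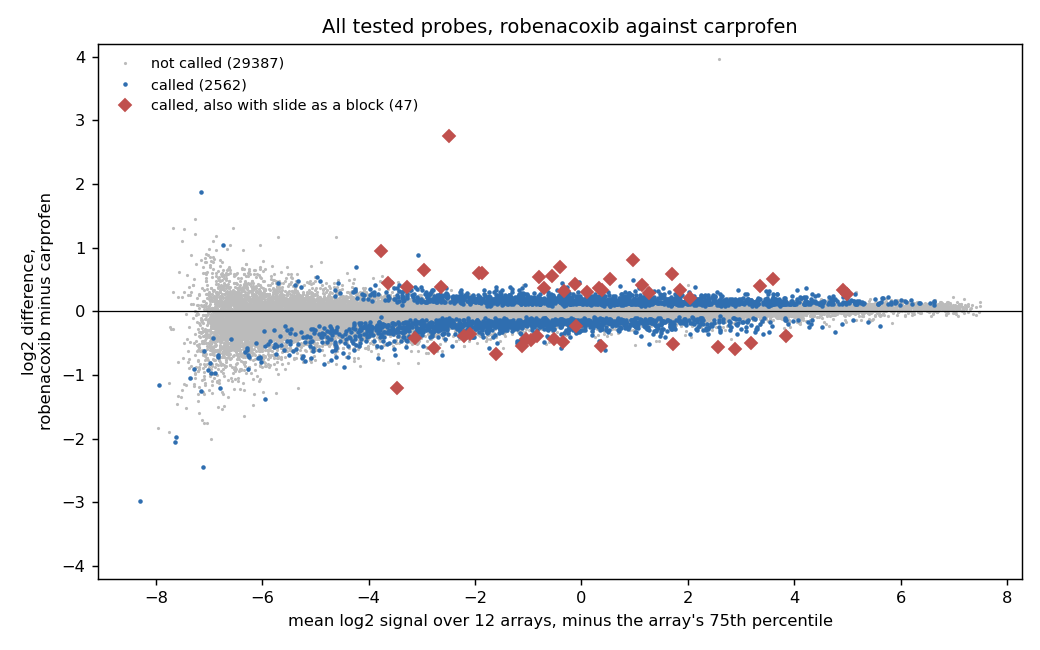
Difference between the drugs (y axis, log2, robenacoxib minus carprofen) against mean signal (x axis, log2 relative to the 75th percentile, mean of 12 arrays) for all 31996 tested probes. Grey points were not called, 2562 blue points were called without the slide block and 47 red points with and without it. Dim called probes lie mostly below 0, and 1 red point stands alone near 2.76.

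The largest called difference among probes well above background on all 6 arrays belonged to a probe with no gene name here, A_11_P0000014469, designed on a predicted transcript. It read -0.41, -0.49 and -0.53 with robenacoxib and -3.29, -3.18 and -3.26 with carprofen. Untreated cells and piroxicam stood at -3.15 ± 0.02 and -3.10 ± 0.02 (SD, n = 3), close to carprofen. The difference of 2.76 (SE 0.04, adjusted p 1.52e-09) is 6.8-fold, and the slide block gave 2.76 (adjusted p 3.54e-05). In the same direction, the next largest difference, A_11_P057061, was 0.95 (SE 0.07, adjusted p 0.00015), with robenacoxib at -3.26, -3.38 and -3.28 and carprofen at -4.39, -4.12 and -4.26, and 0.98 (adjusted p 0.0191) under the block. For this probe untreated cells stood at -4.04 ± 0.04 and piroxicam at -3.43 ± 0.07 (SD, n = 3), so piroxicam lay close to robenacoxib.

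Of the unnamed probes that were lower, A_11_P0000041829 was at -3.34, -3.40 and -3.56 with robenacoxib and at -2.24, -2.21 and -2.26 with carprofen, a difference of -1.20 (SE 0.06, adjusted p 4.66e-05). Untreated cells were lower than both, at -4.08 ± 0.08, and the slide block left the estimate at -1.20 (adjusted p 0.0271). A_11_P0000041884 differed by -1.38 (SE 0.31, adjusted p 0.0267), but its carprofen arrays were scattered, at -4.23, -5.22 and -5.45, and the slide block left it uncalled (-1.29, adjusted p 0.225).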

How the data were processed

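Per the file headers, the deposited scanner output came from Feature Extraction 10.7.3.1. Its processed intensity had local background removed, and arrays were not yet scaled to each other. The authors' deposited value table, on a log2 scale as judged from its values, served as an alternative. Its columns had medians of 7.67 or 7.68; its background correction is not given in the sources used here, and limma 3.24.15 stands in the submitters' processing notes without a role.

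The processed signal of spots that were neither controls nor outliers was put on the log2 scale, minus each array's 75th percentile, with limma 3.58.1 and data.table, version 1.17.8, in R 4.3.3. A probe was tested where all 3 arrays of some group had it well above background (31996 of 43603). One model of 4 groups was fitted to the 12 arrays (lmFit and eBayes, 8 residual degrees of freedom), with two-sided tests and Benjamini-Hochberg adjustment at 0.05. For 68 tested probes at least 1 array value was missing. Precision is limited by the number of arrays, with a median standard error of 0.053. On simulated data with 31928 probes, 56% of differences of 0.3 and 82% of differences of 1 were called. Of 147 calls there, 9 were false. The simulation had independent noise, no slide effect and few changed probes. Its shares are therefore not the power of this comparison, in which no slide held both drugs.

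A RefSeq table named 1313 probes through their accessions (832 genes), and a gene was read on its brightest tested probe. Members, lists and tests were chosen with earlier results of these data known. The rule for naming took up to 12 called genes in each direction by size, up to 3 called genes of each list, 14 genes fixed by name, and 2 unnamed probes in each direction. One called gene is not reported here by name. HSP70 was counted as the list's HSPA1A after the symbols were seen. Alternatives were other scalings and background corrections, filters, slide or replicate number as a block, and each array left out.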

Additional observations from a re-analysis of the deposited data

How the results depend on the processing

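Against 2609 probes and 53 named genes called, counts were 210 and 5 after normexp correction with 75th percentile scaling, 662 and 12 after normexp and quantile normalization, and 555 and 12 in the authors' deposited values. They were 1102 and 24 with spike-in scaling, 1398 and 28 without a filter, 210 and 9 with only the 6 arrays compared, and 1737 and 31 without piroxicam 3 and control 3. Slide as a fixed block gave 81 and 2, and slide as a random block 1375 and 27 (consensus correlation 0.155). The replicate block gave 1375 and 28; replicate numbers of the drugs did not pair, with correlations of -0.20, -0.19 and 0.19. Without 1 drug array, counts ran from 1156 to 2301 probes and 22 to 44 named genes: carprofen 2 (1444 and 29), carprofen 3 (1381 and 28), robenacoxib 1 (1419 and 26), robenacoxib 2 (1156 and 22) and robenacoxib 3 (1628 and 31) each moved them by over 1.5 times. Fits on fewer arrays have fewer degrees of freedom; for the other settings the cause was not tested.

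Signs turned for SAG (0.10) and HTR2B (0.03) with normexp and 75th percentile scaling, for TNNI3 (0.20) and VPS52 (0.05) on another probe, and, for carprofen minus control with spike-in scaling, for CXCL8 (0.22), ESRRA (0.25) and MITF (0.22). CXCL8 and MYC were called between the drugs in every alternative run, and ESRRA in each except slide as a fixed block and its second probe. Quantile normalization (2479 and 48) and a filter for signal on all 6 arrays (2798 and 56) stayed within 1.5 times. Normexp used the median signals, a choice made after seeing the data. Signal over background limits precision: the median standard error was 0.223 in the dimmest bin of signal and 0.037 in the brightest.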

Other observations

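One bright unnamed probe, A_11_P150663, had the largest difference of all tested probes, 3.97 (SE 2.70), and was not called (adjusted p 0.422). It read between 3.41 and 3.83 on 11 of the 12 arrays and -8.54 on carprofen 1, so a single spot sets the value; with slide as a block, which does not use carprofen 1, the difference was -0.17.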
